A study of Homo sapiens with 4 samples.

Results

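Interferon-stimulated genes outside the OAS and IFIT families were followed in NCI-N87, a human gastric carcinoma line with an amplified ERBB2 gene, by RNA sequencing. The members are 39 genes, chosen by symbol from the 60612 genes of the deposited table: factors that carry the type I interferon signal and genes that the signal induces. The 2 ZSCAN18 libraries come from cells given the PLVX-IRES-Puro-ZSCAN18 vector, which expresses a SCAN domain zinc finger protein, and the 2 empty vector libraries from cells given PLVX-IRES-Puro without an insert. All 4 libraries come from cells transfected for 24 hours, treated with the vector for 5 days and selected with puromycin for 4 days. The labels do not say whether the 4 days fall within the 5. The labels mention neither added interferon nor cells without a vector, so the levels given here are those of vector-carrying, puromycin-selected cells. The labels do not say that the libraries come from separate cultures, and p-values therefore measure only the spread between these libraries, which may be technical.

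Type I interferon is sensed by the receptor chains IFNAR1 and IFNAR2, whose kinases JAK1 and TYK2 phosphorylate STAT2. With IRF9, STAT2 is part of the factor ISGF3, which binds the interferon-stimulated response element (ISRE) in the promoters of its targets. The induced proteins sense viral RNA, block entry, replication or release of viruses, or feed back on the signal, and many epithelial tumour lines keep a basal level of them without added interferon.

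The ISRE core was searched in promoter windows because it is what these genes are known to share. RefSeq windows (build GRCh38.p14), each running from 250 bases before a transcript start to 50 after it, were found for 34 of the 39 members, 48 windows in all; IFITM2, IRF7, MX2, TRIM22 and USP18 had none. The motif was TTTCNNTTTC, on both strands (GAAANNGAAA on the other), with overlapping matches kept. It stood in at least 1 window of 23 of the 34 members (67.6%), against 4.38% of the 27305 genes that have a window in the RefSeq table. By window, 27 of 48 (56.2%) held it, against 3.57% of all 35116. A match is a match of letters, not a measured binding site.

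The stretches below are the bases directly before the start, 5′ to 3′ on the gene's strand, with complete cores in capitals. They show the 4 members with the smallest p among those with a window (IFITM1, DDX60, ISG15, PLSCR1), abundant members with almost equal levels in the groups (BST2, IFI6), the member with the largest positive one (SAMD9), and the core that PARP9 and DTX3L share.
IFITM1 (chr11:313940-314039, plus strand): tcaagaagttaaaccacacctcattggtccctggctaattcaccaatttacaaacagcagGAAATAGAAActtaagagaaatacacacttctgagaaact
ISG15 (chr1:1013367-1013496, plus strand): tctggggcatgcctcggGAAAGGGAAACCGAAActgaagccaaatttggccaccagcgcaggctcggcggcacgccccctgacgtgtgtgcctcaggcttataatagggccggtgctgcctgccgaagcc
DDX60 (chr4:168318753-168318862, minus strand): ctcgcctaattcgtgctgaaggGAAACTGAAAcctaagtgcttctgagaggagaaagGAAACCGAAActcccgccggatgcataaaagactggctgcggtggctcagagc
PLSCR1 (chr3:146544608-146544717, minus strand): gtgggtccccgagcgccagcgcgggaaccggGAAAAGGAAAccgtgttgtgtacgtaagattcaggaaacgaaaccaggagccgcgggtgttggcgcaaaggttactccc
BST2 (chr19:17405631-17405780, minus strand): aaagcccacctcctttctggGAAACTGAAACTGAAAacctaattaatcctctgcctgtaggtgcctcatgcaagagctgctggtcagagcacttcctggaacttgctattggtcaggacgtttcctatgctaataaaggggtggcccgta
SAMD9 (chr7:93117980-93118129, minus strand): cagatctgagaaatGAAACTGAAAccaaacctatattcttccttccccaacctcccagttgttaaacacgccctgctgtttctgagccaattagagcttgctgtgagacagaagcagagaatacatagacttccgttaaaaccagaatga
IFI6 (chr1:27672193-27672362, minus strand): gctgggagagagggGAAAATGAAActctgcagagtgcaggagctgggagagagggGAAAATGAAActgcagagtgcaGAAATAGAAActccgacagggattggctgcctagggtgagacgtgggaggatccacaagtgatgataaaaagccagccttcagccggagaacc
PARP9 (chr3:122564301-122564360, minus strand): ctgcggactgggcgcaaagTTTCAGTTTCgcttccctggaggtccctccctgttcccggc

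IFI6 carried 3 cores in its stretch, and ISG15, DDX60 and BST2 carried 2 each. IFITM1 had a second core that begins 6 bases before its start and runs past it, so it is not in capitals. The core of PARP9 occupies chr3:122564332-122564341, and the core of the divergent gene DTX3L is the same 10 bases read on the other strand. The members on both ends of the fold change scale thus carry the same kind of core. The median log2 fold change was -0.09 over the 23 tested members with a core, which ranged from -0.97 to 0.60, and -0.01 over the 10 tested members with a window and no core, which ranged from -0.48 to 0.25. These medians are given as a description, with no test.

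**Figure D1:**
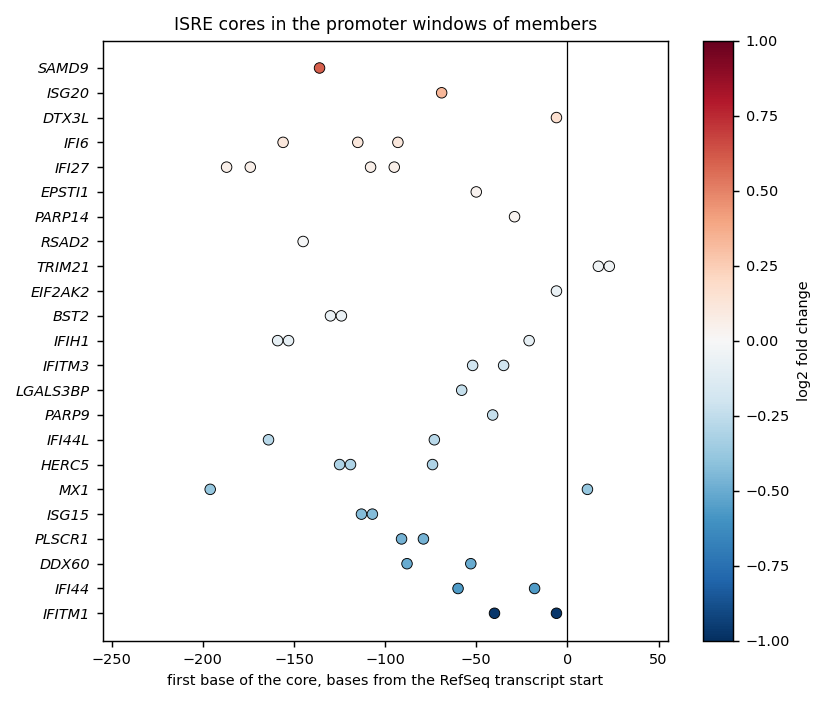
Position of each ISRE core (first base, in bases from the RefSeq transcript start) in the promoter windows of tested members, ordered and coloured by log2 fold change; a gene with several windows has its cores drawn from each start. Cores lie on both sides of 0 on the fold change scale, from IFITM1 at -0.97 to SAMD9 at 0.60.

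Levels are in FPKM, the fragments of a gene divided by transcript length and by the mapped fragments of its library. ZSCAN18 stood at an FPKM of 116 and 112 in the ZSCAN18 libraries and at 0.108 and 0.144 in the empty vector libraries, in columns assigned to the ZSCAN18 group by elimination and not by a label. All 6 epithelial markers were at 34.9 or more in every library. Of these, 1 was called lower with ZSCAN18, KRT18 at an adjusted p of 0.0408 in limma, where 0.973% of all tested genes were. Of the markers of other cell types, PTPRC was at most 0.169. Among them CD68 and COL1A1 alone were high enough for a test, and neither was called. CD68, a leukocyte marker, was at an FPKM of 2.26 and 2.71 in the ZSCAN18 libraries and at 4.22 and 4.53 in the others. Its groups did not overlap (log2 fold change -0.63, limma adjusted p = 0.0699). COL1A1, a fibroblast marker, was at 1.46 and 1.09 against 0.994 and 0.469 (log2 0.41, limma adjusted p = 0.274). The 6 leukocyte markers summed to 2.97 and 3.48 FPKM in the ZSCAN18 libraries and to 4.59 and 6.23 FPKM in the others. Most of it was CD68 and CD14. The summed FPKM of the 5 fibroblast markers was 2.59 and 2.03 against 1.77 and 0.773. Their part in the results below was not tested.

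The second empty vector library stood apart in a few low genes of the interferon response, named after their values were seen. CXCL9 and CXCL10, chemokines induced by interferon, were at an FPKM of 6.25 and 3.95 in it, and at most 0.0578 and 0.179 in the other 3 libraries. IDO1, which degrades tryptophan, was at 1.44 against at most 0.0120, CXCL11, a further chemokine, at 0.808 against at most 0.117, and GBP5, a GTPase, at 0.294 against at most 0.0349. All 5 failed the filter on low FPKM. Without the second empty vector library the members' median log2 fold change was -0.12. The log2 fold changes of IFITM1, DDX60 and MX2 were then -1.01, -0.51 and -0.76, against -0.97, -0.50 and -0.70 with all 4 libraries.

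Depth, estimated from the low FPKM values, was about 23200000 to 24600000 fragments, so that an FPKM of 1 over 1 kb would carry a counting error of 20.2 to 20.8%.

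With no added interferon named in the labels, most members were expressed. At an FPKM of 1 or more in all 4 libraries stood 35 of the 39, and the values ran from 0.0600 for TRIM22 to 209 for BST2. Of all FPKM in a library, the 39 members made up 0.304 and 0.307% in the ZSCAN18 group and 0.327 and 0.335% in the empty vector group, so both ZSCAN18 libraries lay below both empty vector libraries. Part of that difference is carried by a few abundant genes, of which ISG15 and IFITM1 are described below.

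The comparison of ZSCAN18 with the empty vector was made with limma on log2(FPKM + 1) over the 11822 genes that reached an FPKM of 1 in 2 or more libraries, and p-values were adjusted by Benjamini-Hochberg over all of them. Of the members 36 were tested, and IFITM2, XAF1 and TRIM22 were too low. No member passed an adjusted p of 0.05: 0 were called higher, where 0.795% of all tested genes were, and 0 lower, where 0.973% were; 1.77% were called in either direction. The smallest adjusted p was 0.0536. At an unadjusted p under 0.05 in limma, 11 of the 36 were lower with ZSCAN18, 30.6% beside 11.0% of all tested genes, and 2 were higher, 5.56% beside 15.9%. The members were chosen with earlier results of these data known, so these shares and those below are a description and not a test.

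Most fold changes of the members were negative. Negative fold changes were given to 24 of 36 (66.7%), against 42.9% of all tested genes, and the median was -0.09 against 0.04; without the second ZSCAN18 library the median of the members was -0.15, and without the first it was -0.06. Both ZSCAN18 libraries lay below both empty vector libraries in 16 members (44.4%, with 24.4% of all tested genes), above them in 6 (16.7%, with 35.8%), and the groups overlapped in 14. Within 0.2 of 0 on the log2 scale lay 17 members (47.2%, with 59.2% of all tested genes), and 4 stood at -0.5 or lower (11.1%, with 3.81%). In a bulk library less RNA per cell and fewer cells with the RNA cannot be told apart.

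**Figure D2:**
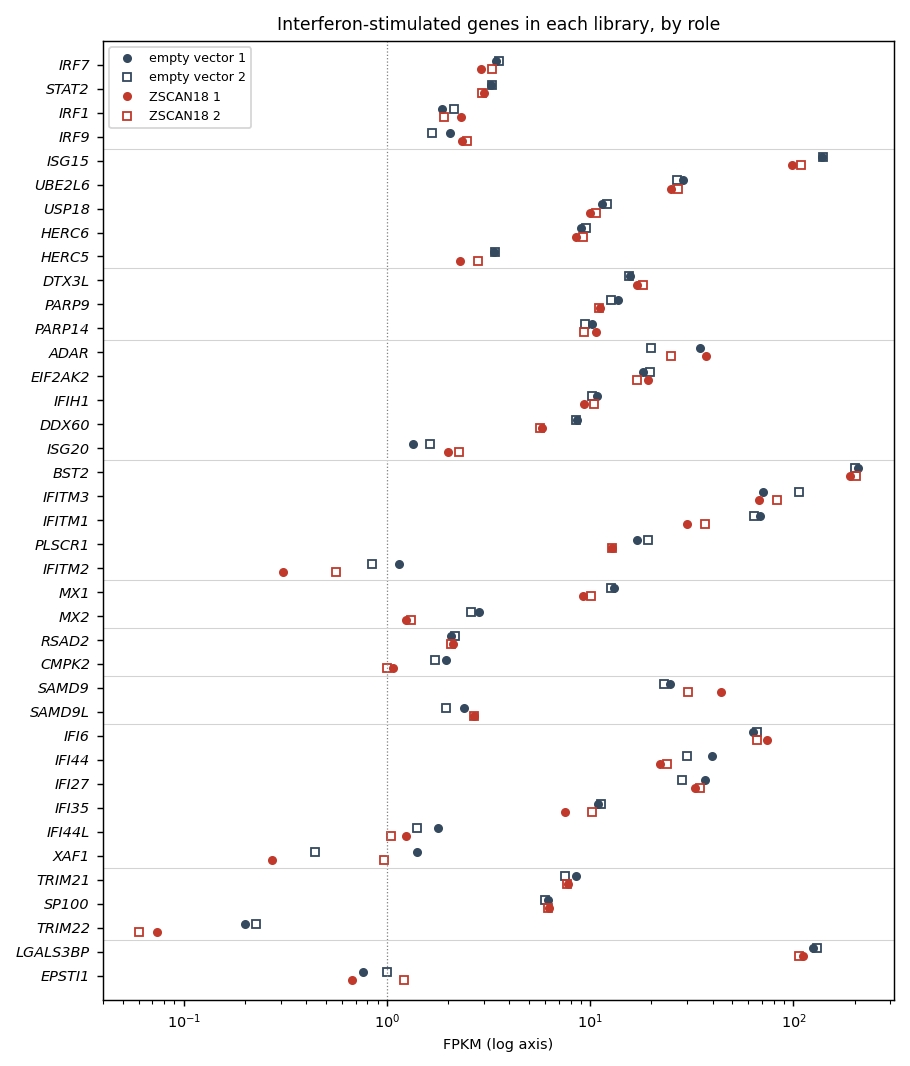
FPKM (log axis) of all 39 members in each library, grouped by role and, within a role, ordered by the empty vector mean; red points are ZSCAN18 libraries, dark points empty vector libraries, and the dotted line is an FPKM of 1. Red points lie to the left of dark ones in IFITM1, DDX60 and the MX genes and to the right in SAMD9 and SAMD9L. TRIM22, IFITM2, CMPK2, IFI44, PLSCR1 and ISG15 also have both red points to the left, and ISG20, DTX3L, IRF9 and SP100 both to the right. Of the 36 tested members 16 have both red points to the left and 6 both to the right.

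**Figure D3:**
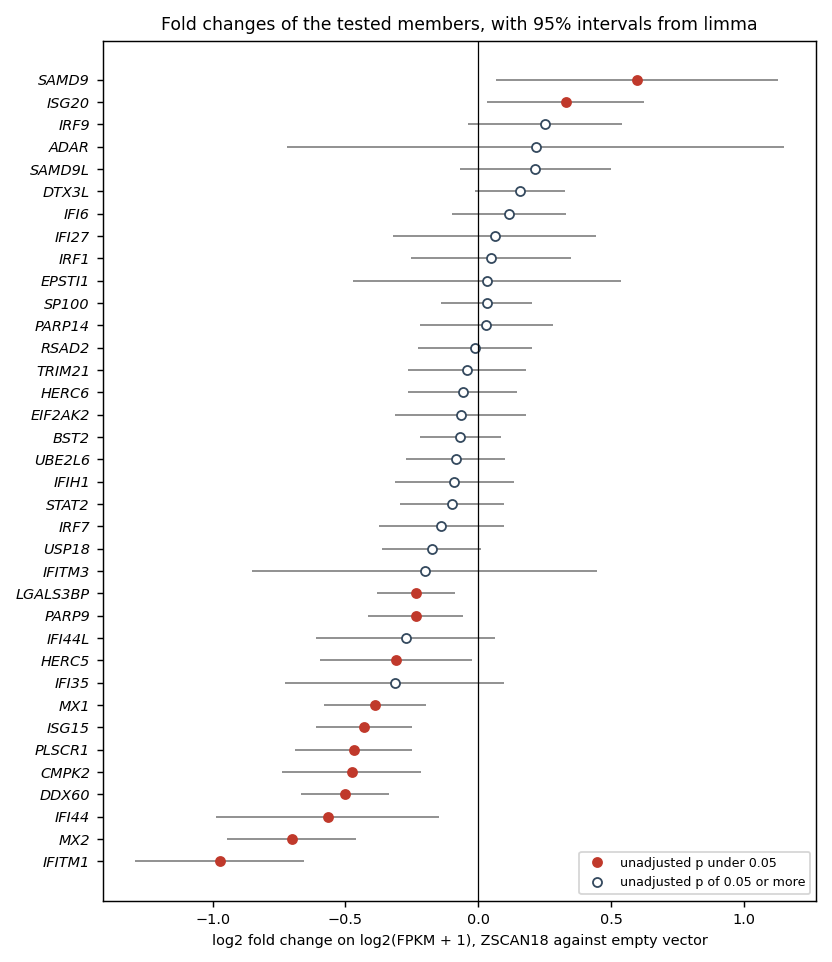
Log2 fold change on log2(FPKM + 1) of the 36 tested members with 95% intervals from limma, ordered by value; filled points have an unadjusted p under 0.05. Of the filled points 11 lie below 0 and 2 above, and no member passed after adjustment.

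The factors of the signal were low, with log2 fold changes from -0.14 to 0.25. STAT2, a subunit of ISGF3, was at an FPKM of 3.02 and 2.94 in the ZSCAN18 group and at 3.23 and 3.29 in the empty vector group. IRF9, the DNA-binding subunit of ISGF3, was at 2.33 and 2.47 against 2.05 and 1.67. Their groups did not overlap but stood on opposite sides, with log2 fold changes of -0.10 (95% interval -0.30 to 0.10) and 0.25 (-0.04 to 0.54), the latter 0.16 without the second empty vector library. IRF9 shares 5188 bases with an expressed clone-named gene on its own strand, AL136295, so its reads cannot be told apart from that gene's with certainty. IRF7, which drives interferon alpha genes, was at 2.90 and 3.29 against 3.45 and 3.55. IRF1, a factor induced by interferon gamma and type I interferon, was at 2.30 and 1.91 against 1.87 and 2.13, and its groups overlapped. None of these 4 factors had an unadjusted p under 0.05 in limma, where 15.9% of all tested genes were higher and 11.0% lower.

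Among the genes of ISG15 conjugation, ISG15 itself had the clearest separation. ISG15, a ubiquitin-like protein that is attached to other proteins and also secreted, was at an FPKM of 97.8 and 108 in the ZSCAN18 group and at 139 and 139 in the empty vector group. Both ZSCAN18 libraries lay below the others, at 74.1% of the empty vector mean. The log2 fold change was -0.43 (SE 0.065, limma adjusted p = 0.0660). HERC5, the main ligase of ISG15 in human cells, was at 2.29 and 2.82 against 3.37 and 3.42 (log2 -0.31, limma adjusted p = 0.169; log2 -0.20 without the first ZSCAN18 library). USP18, which removes ISG15 from proteins and restrains the receptor, was at 9.97 and 10.6 against 11.4 and 12.1. These groups did not overlap either, but USP18 was at 87.6% of the empty vector mean. UBE2L6, the conjugating enzyme of the pathway, had a log2 fold change of -0.09 and overlapping groups at 25.1 to 28.6, and so had HERC6, the ISG15 ligase of mouse cells, at -0.06 and 8.47 to 9.54. All 5 fold changes of this group were negative, and 2 had an unadjusted p under 0.05 in limma. Of all tested genes, 42.9% had a negative fold change and 11.0% were lower at that p.

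The membrane proteins held the member with the smallest p. IFITM1, which blocks the fusion of virus and cell membranes, was at an FPKM of 29.9 and 36.8 in the ZSCAN18 group and at 68.1 and 64.2 in the empty vector group. The ZSCAN18 libraries were at 50.4% of the empty vector mean, with a clear gap between the groups. The log2 fold change was -0.97 (SE 0.115, 95% interval -1.29 to -0.65, limma adjusted p = 0.0536). Its neighbour IFITM3, which acts in endosomes, was at 67.9 and 83.4 against 70.6 and 106, with overlapping groups and a log2 interval of -0.85 to 0.45. IFITM2 was at 0.308 and 0.560 against 1.14 and 0.845 and was not tested. The listed span of IFITM2 contains the whole of IFITM1 on the same strand, 1767 bases, and the 3 IFITM genes are close copies, so the division of reads among them is uncertain. PLSCR1, a phospholipid scramblase with antiviral activity, was at 12.8 and 12.8 against 17.0 and 19.3 (log2 -0.47, SE 0.080, limma adjusted p = 0.0755). BST2, the tetherin that holds budding virus on the cell, was the most abundant member, at 189 and 203 against 209 and 202, and its groups overlapped (95% interval -0.22 to 0.09).

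Both MX genes, dynamin-like GTPases that trap viral nucleocapsids, had lower values in both ZSCAN18 libraries. MX2, which acts at the nuclear pore, was at an FPKM of 1.25 and 1.32 in the ZSCAN18 group and at 2.85 and 2.58 in the empty vector group. This is 47.2% of the empty vector mean, a lower ratio than for any other tested member, while the log2 fold change on log2(FPKM + 1) of -0.70 (SE 0.088, limma adjusted p = 0.0563) understates it at such a low level. MX1, the cytoplasmic inhibitor of influenza virus, was at 9.17 and 10.0 against 13.1 and 12.7 (log2 -0.39, SE 0.070, limma adjusted p = 0.0785). In neither gene did the groups overlap.

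The RNA-directed enzymes had fold changes of both signs. DDX60, a helicase linked to RNA sensing, was at an FPKM of 5.80 and 5.68 in the ZSCAN18 group and at 8.62 and 8.49 in the empty vector group. Its replicates were almost equal, and the ZSCAN18 mean was 67.1% of the empty vector mean (log2 -0.50, SE 0.060, limma adjusted p = 0.0538). ISG20, an exonuclease that degrades RNA, was at 1.99 and 2.25 against 1.35 and 1.62, one of the 2 members with a positive fold change and an unadjusted p under 0.05 (log2 0.33, limma adjusted p = 0.162). IFIH1, the sensor MDA5, was at 9.28 and 10.4 against 10.8 and 10.2. EIF2AK2, the kinase PKR that halts translation when it binds double-stranded RNA, was at 19.3 and 16.9 against 18.3 and 19.7. In both of these sensors the groups overlapped. ADAR, which edits adenosine to inosine in double-stranded RNA, was at 37.3 and 25.1 against 34.5 and 19.9, so the library numbered 1 was the higher in each group and the difference between the groups was smaller than that within them (95% interval -0.72 to 1.15).

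IFITM1, DDX60 and MX2 stood at the threshold. They passed it, with adjusted p between 0.0418 and 0.0499 in limma, when the libraries were rescaled by the median of ratios, after quantile normalization, and when genes had to reach an FPKM of 1 in all libraries. Over all 11 alternatives their adjusted p ran from 0.0448 to 0.189 for IFITM1, from 0.0440 to 0.217 for DDX60 and from 0.0418 to 0.222 for MX2, and the fold change was negative in each. In the authors' deposited table, whose statistical model the sources used here do not give, 2 members had a q under 0.05, IFITM1 at 1.96e-04 and MX2 at 3.95e-04. By that q, 1.71% of the tested genes were lower and 1.07% higher. The authors' deposited table marks 3 members as significant, all lower: MX2, IFITM2 and TRIM22, of which the last 2 have a q of 0.332 and 0.0737. In the authors' deposited table, 0.366% of all listed genes are marked and lower, and marked genes have an unadjusted p of at most 0.0499 and a log2 fold change beyond 1 in size.

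The SAMD9 genes stood on the other side. SAMD9, which stops protein synthesis in poxvirus-infected cells, was at an FPKM of 44.0 and 30.4 in the ZSCAN18 group and at 24.6 and 23.1 in the empty vector group. Both ZSCAN18 libraries were above the others, at 156% of the empty vector mean, but they differed from each other by more than the second of them did from either control. The log2 fold change was 0.60 (SE 0.191, 95% interval 0.07 to 1.13, limma adjusted p = 0.160), and it was 0.86 without the second ZSCAN18 library and 0.34 without the first. SAMD9L, its paralogue, was at 2.69 and 2.67 against 2.40 and 1.96 (log2 0.21, limma adjusted p = 0.268), and its log2 fold change was 0.11 without the second empty vector library.

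The IFI genes differed among themselves. IFI44, a cytosolic protein with antiviral activity, was at an FPKM of 22.1 and 23.8 in the ZSCAN18 group and at 39.7 and 29.9 in the empty vector group, with the larger spread in the empty vector group (log2 -0.57, SE 0.152, limma adjusted p = 0.127). The log2 fold change was -0.37 with the first of those 2 libraries left out. IFI44L, a paralogue expressed far lower, was at 1.24 and 1.05 against 1.79 and 1.40, and IFI35, which binds the interferon-induced protein NMI, was at 7.54 and 10.2 against 10.9 and 11.3. The groups of these 3 genes did not overlap. IFI6, which protects cells from flaviviruses at the endoplasmic reticulum, was at 74.3 and 65.8 against 63.1 and 65.8, and IFI27, a small hydrophobic protein, at 32.7 and 34.7 against 36.6 and 28.3. Both are strongly induced genes in the interferon response, and both had overlapping groups here. XAF1, an antagonist of the apoptosis inhibitor XIAP, was at 0.271 and 0.969 against 1.41 and 0.441, too variable and too low for a comparison.

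The remaining members have other roles. LGALS3BP, a secreted glycoprotein that binds galectins, was at an FPKM of 111 and 106 in the ZSCAN18 group and at 125 and 131 in the empty vector group (log2 -0.23, SE 0.053, limma adjusted p = 0.101). TRIM21, a cytosolic antibody receptor, was at 7.77 and 7.65 against 8.47 and 7.50, and SP100, a component of nuclear bodies, at 6.25 and 6.20 against 6.19 and 5.96. The sign of SP100, at 0.03, turned to -0.01 after rescaling by the median of ratios and to -0.02 after quantile normalization. EPSTI1, a gene of epithelial and stromal contact, lay between 0.670 and 1.22 in all libraries. TRIM22, an antiviral ligase, was at 0.0735 and 0.0600 against 0.201 and 0.226, at 31.2% of the empty vector mean and with groups apart, but untested and in a range where few fragments stand behind a value, and it lies inside TRIM5 on the opposite strand.

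Several members lie next to each other in the genome, and the ratio of each such pair was taken within each library. CMPK2, a mitochondrial nucleotide kinase, and RSAD2, the antiviral enzyme viperin, lie on opposite strands of chromosome 2. Their listed spans overlap by 14 bases. The RefSeq window of RSAD2 that holds its core starts at base 6877527, beyond the end of CMPK2 at base 6865819, so not every RSAD2 transcript starts next to CMPK2. CMPK2 was at an FPKM of 1.08 and 1.003 in the ZSCAN18 group and at 1.96 and 1.72 in the empty vector group (log2 -0.48, SE 0.095, limma adjusted p = 0.0860), while RSAD2 was at 2.11 and 2.07 against 2.08 and 2.15 (95% interval -0.23 to 0.20). The ratio of CMPK2 to RSAD2 was therefore 0.510 and 0.485 in the ZSCAN18 group and 0.942 and 0.803 in the empty vector group. An exact permutation test of such a ratio with 2 libraries against 2 cannot go below a two-sided p of 0.333, so none is given.

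PARP9 and DTX3L, which form a complex that modifies histones, start head to head on chromosome 3 and share the core shown above. PARP9 was at an FPKM of 11.1 and 11.0 in the ZSCAN18 group and at 13.7 and 12.7 in the empty vector group (log2 -0.24, limma adjusted p = 0.130). DTX3L was at 16.9 and 18.1 against 15.8 and 15.5 (log2 0.16, limma adjusted p = 0.204). The groups of each gene were apart, on opposite sides, and the ratio of PARP9 to DTX3L was 0.656 and 0.606 against 0.869 and 0.820. The sources used here do not say whether reads were counted by strand, and the genes overlap by 240 bases. PARP14, a further ADP-ribosyltransferase on the same chromosome, was at 10.7 and 9.36 against 10.2 and 9.39, with overlapping groups. The ratio of MX2 to MX1, 10913 bases apart on chromosome 21, was 0.136 and 0.131 in the ZSCAN18 group and 0.218 and 0.204 in the empty vector group. The ratio of HERC6 to HERC5 was 3.70 and 3.27 against 2.66 and 2.79. The ratio of IFITM1 to IFITM3 was 0.440 and 0.441 against 0.964 and 0.603. Of the 8 neighbour pairs the ratios of the groups did not overlap in these 5, and overlapped for SAMD9 to SAMD9L, IFI44L to IFI44 and IFITM2 to IFITM1. Among 8589 pairs of adjacent tested genes less than 100 kb apart, 54.9% had ratios that did not overlap, beside 5 of the 7 member pairs with both genes tested, so a difference of this kind was common in these libraries.

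**Figure D4:**
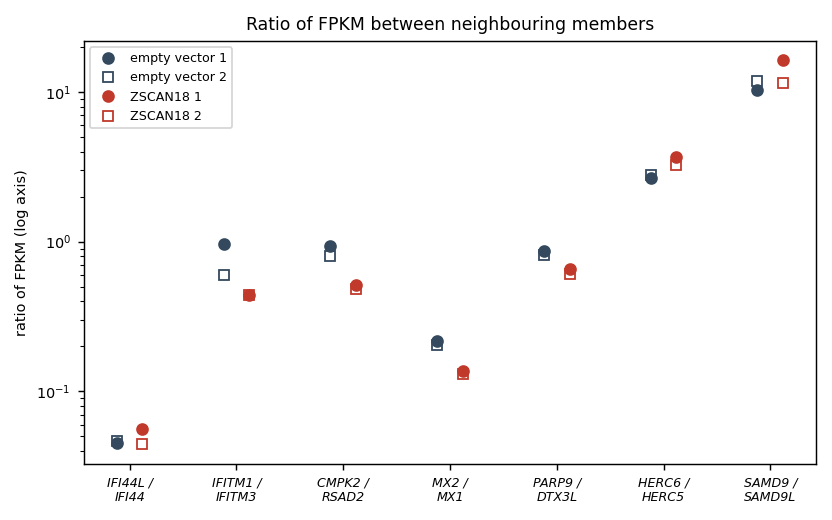
Ratio of FPKM between neighbouring members in each library (log axis); red points are ZSCAN18 libraries and dark points empty vector libraries. The ratio of CMPK2 to RSAD2 is near 0.5 with ZSCAN18 and between 0.803 and 0.942 with the empty vector, and the ratios of PARP9 to DTX3L, MX2 to MX1 and IFITM1 to IFITM3 are also lower with ZSCAN18 in both libraries.

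The tested genes upstream of the members gave 0 calls, where 1.77% of all tested genes were called in either direction. At that share 0 calls in lists this short say little. All 21 interferon genes failed the filter on low FPKM and were not tested. In all libraries 14 were listed at the value for no signal, and the highest value was 0.787, for IFNE, an interferon of epithelia. IFNB1 was listed with signal in 1 library of each group, at 0.153 and 0.0431. IFNL1, an interferon lambda, was listed at the value for no signal in both ZSCAN18 libraries and at 0.0515 and 0.457 with the empty vector. Of the 10 tested genes of the receptor and kinase list, 0 were called. JAK1 alone was higher at an unadjusted p under 0.05 in limma, where 15.9% of all tested genes were. IFNAR1 was at an FPKM of 9.63 and 8.48 in the ZSCAN18 group and at 8.47 and 8.05 in the empty vector group, and IFNAR2 at 4.34 and 4.00 against 2.78 and 4.14. JAK1 was at 10.4 and 10.5 against 8.48 and 6.94, and TYK2 at 4.66 and 4.39 against 4.26 and 4.25. IFNAR1, IFNAR2, JAK1 and TYK2 thus had positive fold changes, none past the test.

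The sensors of nucleic acids were split as well, with 0 of 10 tested genes called and 3 in each direction at an unadjusted p under 0.05 in limma. Of all tested genes, 1.77% were called, and at that unadjusted p 15.9% were higher and 11.0% lower. TLR3, the endosomal sensor of double-stranded RNA, was at an FPKM of 2.49 and 2.42 in the ZSCAN18 group and at 1.19 and 1.12 in the empty vector group (log2 0.68, SE 0.082, limma adjusted p = 0.0540). STING1, the adaptor of the DNA sensor cGAS, was at 2.15 and 2.43 against 4.05 and 3.35 (log2 -0.51, limma adjusted p = 0.0992), and IFI16, a nuclear DNA sensor, at 2.50 and 2.91 against 3.72 and 3.61. Of 6 tested negative regulators 0 were called, with PTPN11, a phosphatase, at 0.28 (limma adjusted p = 0.0773).

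Among 34 tested genes of a further list of interferon-stimulated genes, 1 was called higher and 0 lower, where 0.795% and 0.973% of all tested genes were. The called gene was APOL2, an intracellular apolipoprotein L, which rose from 6.77 ± 0.290 FPKM (SD, n = 2) to 13.4 ± 0.227 FPKM (log2 0.89, SE 0.062, limma adjusted p = 0.0344). The median of this list was 0.04, that of all tested genes 0.04. PSMB9, an immunoproteasome subunit, had a log2 fold change of -0.42 and TDRD7, an interferon-induced inhibitor of autophagy, one of 0.39, each with a limma adjusted p of 0.0886. In the OAS and IFIT families 3 of 8 tested genes were called lower (OASL, OAS2 and IFIT3), where 0.973% of all tested genes were. At an unadjusted p under 0.05 in limma 7 were lower, beside 11.0% of all tested genes, and the median of the families was -0.69. IFIT5 was the exception among the 8, at 10.0 and 9.31 against 9.73 and 10.1. Whether the calls of APOL2, OASL, OAS2 and IFIT3 hold without 1 library could not be decided. A group then has 1 sample, and hardly any gene of the whole table passed. With no filter on low FPKM 0 genes of the pathway lists passed, and 1 gene of the whole table did. The difference between those families and the members was not tested.

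**Figure D5:**
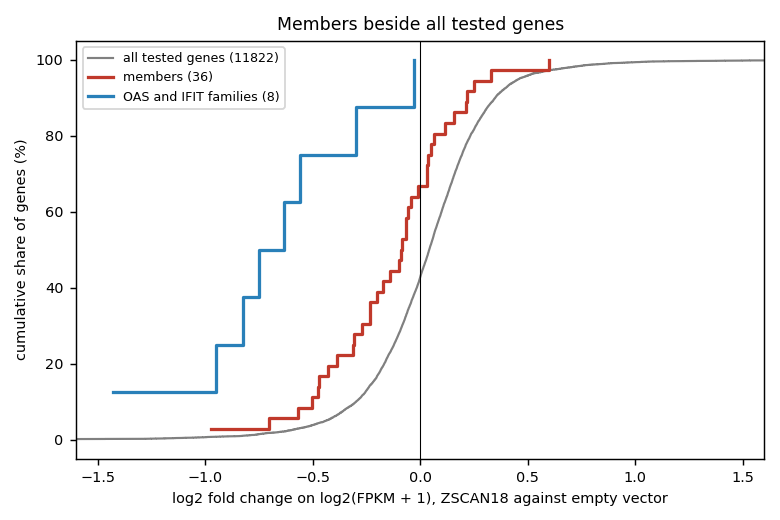
Cumulative share of genes (%) by log2 fold change on log2(FPKM + 1) for the 36 tested members, the 8 genes of the OAS and IFIT families and all 11822 tested genes; the axis stops at 1.6 on both sides. The curve of the members lies to the left of that of all genes over most of its range, with medians of -0.09 and 0.04, and that of the OAS and IFIT families further left, with a median of -0.69.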

How the data were processed

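The authors' single table holds, per the file headers, the FPKM of each gene in each library. Beside them stand the authors' deposited fold change (a ratio), the log2 of that ratio, p-value, q-value and a significance mark. An FPKM of 0.0001 stands for no signal in the deposited table. Without saying what each did, the submitters' processing notes list StringTie 1.3.4d, HISAT2 2.0.4, DESeq2, edgeR 3.2.5, FastQC 0.10.1 and cutadapt 1.9; for build, annotation and strandedness the sources used here state nothing. All 39 members had a start and end within 100 kb of their GENCODE 29 (GRCh38) position, 13 of them identical. The empty vector columns carry sample titles. The other 2 match no title and were taken as the ZSCAN18 group because no other group was left, so their numbers are those of the columns. Which ZSCAN18 sample each holds is not known.

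Because FPKM cannot enter a count test, limma 3.58.1 (R 4.3.3) was run on log2(FPKM + 1) for every gene reaching an FPKM of 1 in 2 or more libraries. The model had the group as its term, with variances moderated by eBayes along an intensity trend (residual degrees of freedom 2, prior 2.01). Two-sided p-values were adjusted by the Benjamini-Hochberg method across the whole set of tested genes, with calls made under 0.05. Fold changes on this scale understate the change of low genes. Depth was estimated by taking the most common value of FPKM times length among single-exon, single-transcript genes, as 1 fragment, within bounds of 10000000 and 50000000 fragments; with a tolerance of 0.02, 23.8 to 25.3% of the low values were whole multiples of it, too few to turn FPKM back into fragments. This error covers counting only.

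The members and lists were chosen with earlier results of these data known. All 39 members may be named; the 12 with the smallest p, and up to 3 genes per pathway list with the smallest p, have their test given, and IFNAR1, IFNAR2, JAK1 and TYK2 are named in any case. The adjusted p of HERC5, DTX3L and SAMD9L was given outside this rule, beside their partner genes. That of the cell type markers KRT18, CD68 and COL1A1 was also given outside it. Genes beyond it, such as IFNE, IFNB1, IFNL1, IFIT5 and CXCL9, were named after their values were seen.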

Additional observations from a re-analysis of the deposited data

How the results depend on the processing

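Of 36 tested members, 25 kept the sign of their fold change under all 11 alternatives and 11 did not; none of the 11 had an unadjusted p under 0.05 in limma. The count of members called lower, 0 as reported, was 3 (IFITM1, DDX60 and MX2) after median-of-ratios scaling, after quantile normalization and with an FPKM of at least 1 required in all libraries, and 0 under the other 8; 0 members were called higher under any. The count of all genes called, 209 as reported, was 99 without the variance trend and 1 with no filter on low FPKM, and 0 to 1 without 1 library. With the replicate block (the number of the column as a term) it was 1, and 0 members were called. Whether same-numbered libraries share a culture or batch is not stated. The correlation of their deviations across 11822 genes was 0.034, which cannot exclude a pairing. Of the 4 genes called in the pathway lists, 0 passed with no filter or with the replicate block, where 1 gene of the whole table passed. For the members' median the range without 1 library was -0.15 to -0.059, and for ZSCAN18 6.65 to 6.70, with an adjusted p in limma of 0.0864 or 0.0849 without either ZSCAN18 library. Median-of-ratios scaling turned the sign of SP100 (-0.011) and PARP14 (-0.015). Quantile normalization turned that of BST2 (0.10), SP100 (-0.020), IRF1 (-0.0091), PARP14 (-0.0023) and EPSTI1 (-0.035). Leaving out 1 library gave -0.49 to 0.091 for IFITM3, -0.16 to 0.025 for EIF2AK2, -0.17 to 0.60 for ADAR, -0.12 to 0.036 for TRIM21, -0.12 to 0.24 for IFI27, -0.042 to 0.14 for IRF1, -0.057 to 0.12 for PARP14, -0.17 to 0.24 for EPSTI1 and -0.028 to 0.0056 for RSAD2; within 1 sign, it gave -0.13 to -0.036 for UBE2L6, -0.11 to -0.0051 for HERC6 and 0.0075 to 0.055 for SP100. The ISRE core stood in 20 members, in place of 23, when only the bases before the start were searched. The cause of these shifts was not tested. Without 1 library an arm has 1 sample, which is assumed to vary like the other group. A count of 0 calls there cannot tell whether a call holds. Values of TRIM22, XAF1 and IFITM2 are limited by depth.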
